A study of Mus musculus with 6 samples.

Results

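The genes described here encode 9 enzymes or cofactors that write or remove DNA methylation or the Polycomb histone mark. They are the DNA methyltransferases Dnmt1, Dnmt3a and Dnmt3b, the cofactor Uhrf1, the oxidases Tet1, Tet2 and Tet3, and the histone methyltransferases Ezh1 and Ezh2. They were chosen by gene symbol, and all 9 of 9 were found among the 47069 Ensembl gene IDs shared by both deposited tables. Their transcripts were read from 6 RNA-seq libraries of mouse Treg cells (regulatory T cells), CD4 T cells that restrain immune responses and depend on the transcription factor Foxp3. Cells had been sorted from lymph node and spleen as CD4+GFP+CD62Lhigh and activated with Dynabeads, which are magnetic beads.

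All animals carried a Cre recombinase driven by Foxp3, so that deletion was directed to regulatory T cells. The tested libraries are labelled cKO (Foxp3CreNoc4lfl/fl, 2 floxed Noc4l alleles), and those set against them are labelled Het (Foxp3CreNoc4l+/fl, 1 floxed allele). Another passage of the labels gives both genotypes the same pair of alleles, so the genotype was taken from each library's own label. At 72 h of activation there were 2 libraries of each genotype, cKO replicates 2 and 4 and Het replicates 1 and 3. At 48 h there was 1 of each, cKO replicate 2 and Het replicate 1. The age of the animals, and whether libraries came from separate animals or pools, is not given in the sources used here, so p-values measure only the spread between these libraries.

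Values are FPKM, fragments scaled by gene length and library depth, deposited in 2 tables. The first holds replicates 1 and 2 at both times, the second replicates 3 and 4 at 72 h. The tables were made separately, so genotypes were compared within a table. FPKM summed to 684617 to 702855 per library in the first and to 624503 to 626402 in the second. Whether the groups overlap across tables therefore depends on scale, and is given below for the deposited values as a description. Estimated depth was 16.4 to 28.8 M fragments per library. Noc4l, the floxed gene, stood at 81.7 and 58.1 FPKM in the libraries labelled cKO at 72 h, against 48.8 and 40.8 in Het, and at 124 against 99.1 FPKM at 48 h. It was thus higher in the library labelled cKO in 3 of 3 pairs, which goes against the labels, and cKO below always means a library labelled so. One value per gene cannot show the loss of single exons. Foxp3 was present in every library, at 147 to 336 FPKM.

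Markers of other cells were uneven. The summed level of 12 myeloid and neutrophil markers was 75.9 to 381 FPKM in cKO at 72 h against 21.9 to 38.9 in Het, and 445 against 44.1 at 48 h. The sum of 8 B cell markers was 9.23 to 94.5 FPKM in cKO at 72 h against 10.1 to 14.5 in Het, and 26.6 against 9.88 at 48 h. The sum of 8 CD8 T and NK cell markers was 120.4 to 314 FPKM in cKO at 72 h against 14.6 to 83.9 in Het, and 43.2 against 30.9 at 48 h. The upper cKO value at 72 h was in each case that of cKO 2. In cKO 4 and Het 3 the myeloid sums were nearly all Ltf (75.3 and 21.4 FPKM). So were those of Het 1, with Ltf at 38.2 FPKM at 72 h and 43.5 at 48 h. In cKO 2 Ltf was at 107 and 102 FPKM at these times, and S100a9 at 90.7 and 110. In cKO 4 and Het 3, 7 and 9 of the 12 genes were listed at 0, S100a8 and Lyz2 among them. In cKO 4 the CD8 T and NK cell sum was mostly Nkg7 (89.1 FPKM, 6.48 in Het 3) and Gzma (22.8, 1.92 in Het 3). Cd8a stood at 2.24 and 1.01 FPKM in cKO 4 and Het 3, and Cd8b1 at 4.47 and 4.69. In cKO 2 Cd8a stood at 39.0 FPKM at 72 h and 0.992 at 48 h, and in Het 1 at 20.3 and 0.466. The sum of 6 erythroid markers was 1.45 to 24.6 FPKM in cKO at 72 h against 5.89 to 27.01 in Het, and 30.9 against 1.74 at 48 h. In bulk samples like these, fewer cells of a type and less RNA per cell cannot be told apart, and the part of these cells in the results below was not tested.

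DNA methylation is copied at each cell division by Dnmt1, which Uhrf1 brings to newly replicated DNA. Dnmt3a and Dnmt3b place new marks, and the Tet enzymes oxidise methylcytosine as the first step of its removal. Ezh2 and Ezh1 are the alternative catalytic subunits of Polycomb repressive complex 2 (PRC2), which methylates lysine 27 of histone H3 at repressed genes, with Ezh2 typical of dividing cells and Ezh1 of resting ones. In regulatory T cells, loss of methylation at an intronic enhancer of Foxp3 is known to keep Foxp3 expressed through divisions, Tet2 and Tet3 to take part in that loss, and Ezh2 to be induced by activation.

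Promoter windows of the cycle-linked genes Dnmt1, Uhrf1 and Ezh2 are shown with that of Ezh1, the catalytic alternative to Ezh2. The windows come from RefSeq (build GRCm38.p6), all 9 genes matched, and are 300 bases long around an annotated start. Where a gene had several, the window with the most CpG was taken. Dnmt1 had 3 windows and Uhrf1 2, so the window shown need not be that of the start most used. Capitals mark the words TTTCCCGC, TTTCGCGC, TTTGCCGC and TTTGGCGC, the textbook recognition letters of E2F factors, searched on both strands.
Dnmt1, chr9:20952574-20952873, minus strand: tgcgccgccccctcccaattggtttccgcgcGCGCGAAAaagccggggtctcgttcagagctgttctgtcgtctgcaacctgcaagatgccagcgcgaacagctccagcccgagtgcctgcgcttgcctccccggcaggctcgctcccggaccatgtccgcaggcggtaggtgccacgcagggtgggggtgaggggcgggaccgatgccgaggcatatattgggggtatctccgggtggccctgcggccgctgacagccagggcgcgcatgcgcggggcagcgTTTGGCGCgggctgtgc
Uhrf1, chr17:56304063-56304362, plus strand: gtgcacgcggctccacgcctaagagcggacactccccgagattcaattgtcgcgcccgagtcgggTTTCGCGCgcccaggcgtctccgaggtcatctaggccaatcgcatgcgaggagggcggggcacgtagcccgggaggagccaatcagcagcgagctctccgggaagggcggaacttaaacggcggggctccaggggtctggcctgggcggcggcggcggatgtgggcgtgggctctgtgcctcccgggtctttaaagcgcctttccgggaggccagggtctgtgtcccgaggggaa
Ezh2, chr6:47594981-47595280, minus strand: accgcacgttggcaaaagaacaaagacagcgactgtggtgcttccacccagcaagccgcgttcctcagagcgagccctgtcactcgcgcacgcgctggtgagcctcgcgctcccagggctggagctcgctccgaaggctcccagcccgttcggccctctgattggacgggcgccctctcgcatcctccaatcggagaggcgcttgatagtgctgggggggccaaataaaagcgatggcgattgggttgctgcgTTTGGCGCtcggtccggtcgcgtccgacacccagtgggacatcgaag
Ezh1, chr11:101226414-101226713, minus strand: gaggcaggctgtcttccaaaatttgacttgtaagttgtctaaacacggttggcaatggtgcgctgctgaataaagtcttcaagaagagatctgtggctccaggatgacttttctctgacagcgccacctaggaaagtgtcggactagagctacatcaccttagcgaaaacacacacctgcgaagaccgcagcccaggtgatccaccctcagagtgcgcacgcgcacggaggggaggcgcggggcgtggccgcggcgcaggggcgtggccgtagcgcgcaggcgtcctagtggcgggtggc
The Dnmt1 window held 2 words, 1 of them reading on the opposite strand, and those of Uhrf1 and Ezh2 held 1 each. No word overlapped another there, and the windows of the other 6 genes, Ezh1 included, held none of these letters. Of 27025 genes with 1 window each, 2.39% held a word. CpG numbered 33 in the Dnmt1 and Uhrf1 windows, 31 in that of Ezh2 and 23 in that of Ezh1, against a median of 8 over all genes, and reached 57 for Tet2 and 47 for Dnmt3a. A match is a description of letters and not of a bound site.

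Uhrf1, Ezh2 and Dnmt1 were the 3 most abundant of the 9 transcripts in 6 of 6 libraries. Over all libraries of both genotypes and times, Uhrf1 averaged 165 ± 28.3 FPKM (SD, n = 6), Ezh2 139 ± 16.9 and Dnmt1 127 ± 12.7. The ranges of these 3 genes overlapped, so their order did not exceed their spread, and all lay above that of Dnmt3a. Dnmt3a followed at 75.7 ± 19.5 FPKM and Tet3 at 53.6 ± 7.81. Ezh1 averaged 37.9 ± 13.5 and Tet2 30.9 ± 6.22 FPKM, and neighbouring genes from Dnmt3a to Tet2 overlapped as well. Dnmt3b and Tet1 were low, at 4.78 ± 1.60 and 1.48 ± 0.37 FPKM, and each lay apart from its neighbours in the order. Counting error from the estimated fragments was 0.837% to 1.24% for Dnmt1 but 7.71% to 11.2% for Tet1.

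**Figure D1:**
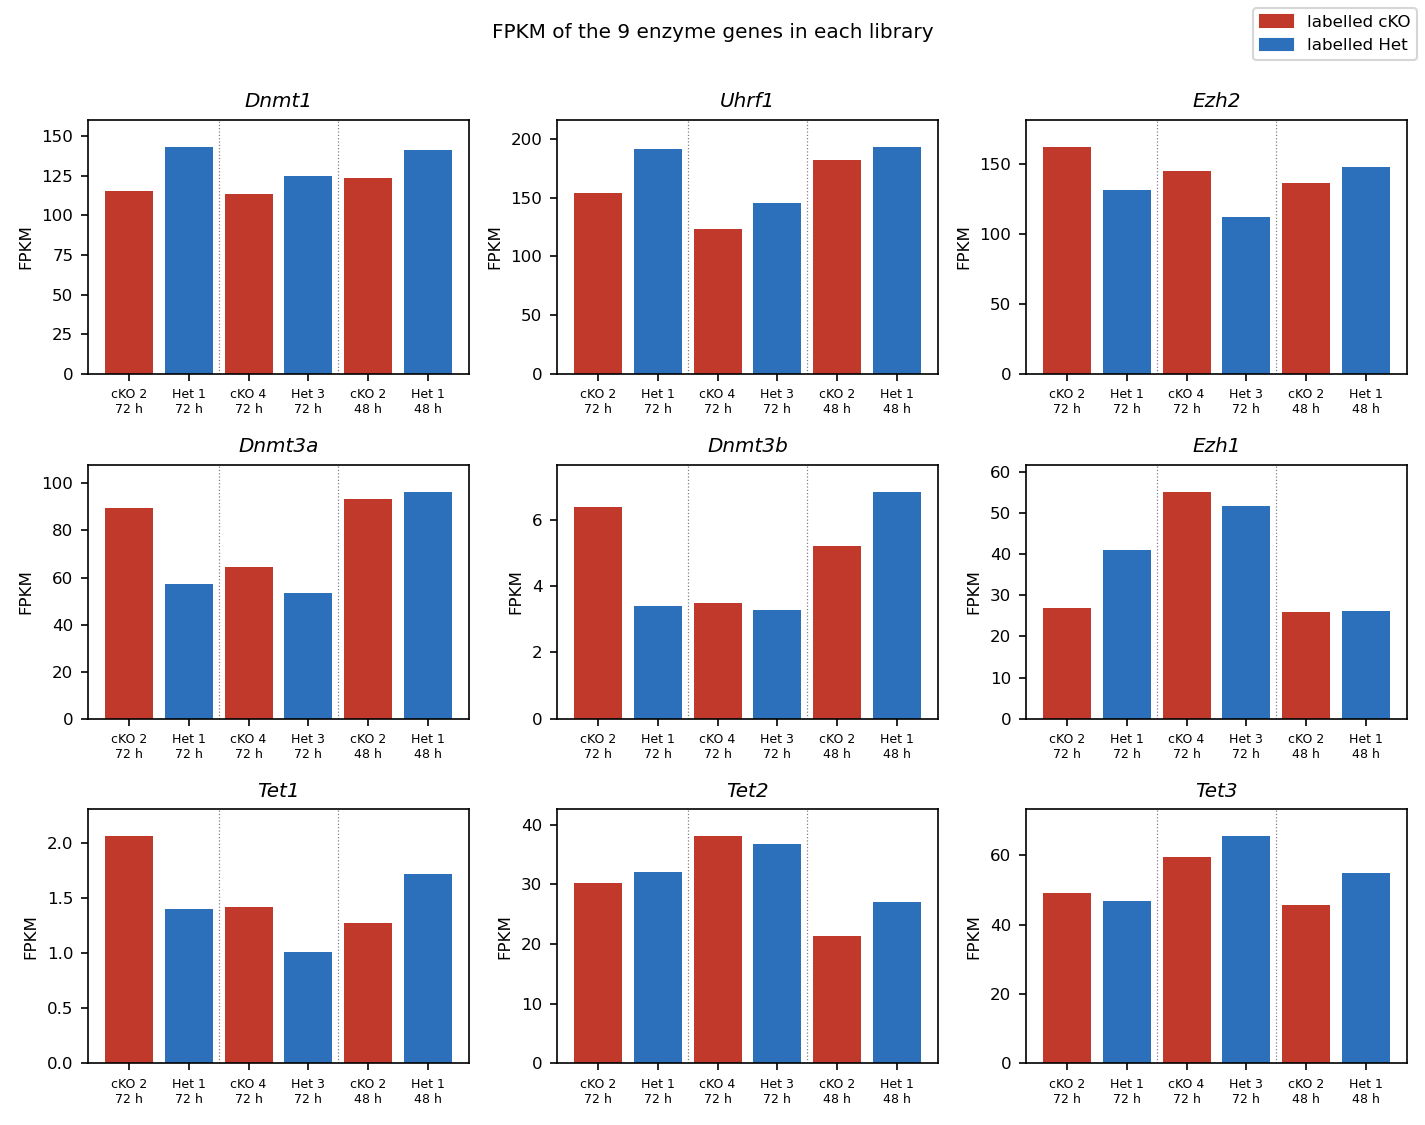
FPKM (linear axis from 0) of the 9 genes, 1 bar per library, with libraries labelled cKO in red and Het in blue; dotted lines part the 3 pairs. Ezh2 is higher in cKO in both 72 h pairs (162 against 132 and 145 against 112 FPKM), while Dnmt1 and Uhrf1 are lower in cKO in 3 of 3 pairs.

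The order among the leading 3 differed between the genotypes at 72 h. Ezh2 ranked first in cKO 2 and in cKO 4, and below both Uhrf1 and Dnmt1 in Het 1 and in Het 3. At 48 h Uhrf1 ranked first and Ezh2 second in both libraries.

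At 72 h, the maintenance genes stood lower and the de novo methyltransferases and Ezh2 higher in the libraries labelled cKO than in Het, but none of the 9 genes passed the test. Differences are given as log2(FPKM + 1), cKO minus Het, with limma and the table as a term, over 12488 genes, and adjusted p under 0.05 counted as passing. Of all genes tested, 0% passed as well. At an unadjusted p under 0.05 there was 1 of 9, Dnmt3a, a share of 11.1% against 17.3% of all genes (10.3% in the direction of Dnmt3a). The fit leaves 1 residual degree of freedom, and limma draws each gene's spread towards a trend over all genes. The SEs, intervals and p-values therefore rest on that shared spread as well as on the gene's own.

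Dnmt1, the maintenance methyltransferase, was at 115 and 113 FPKM in cKO 2 and cKO 4, against 143 and 125 in Het 1 and Het 3. Both cKO values lay below both Het values. The fitted difference was -0.23 ± 0.13 (SE, limma adjusted p = 0.423). Its cofactor Uhrf1, which reads hemimethylated DNA, was at 154 and 124 FPKM in cKO, against 191 and 146 in Het. Uhrf1 was lower in cKO in each pair. Its deposited values overlapped only across the 2 tables, which differ in scale. Its fitted difference was -0.27 ± 0.12 (limma adjusted p = 0.341). The 95% intervals ran from -0.58 to 0.13 for Dnmt1 and from -0.61 to 0.066 for Uhrf1.

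Dnmt3a, which places new methylation in mature T cells, was at 89.5 and 64.4 FPKM in cKO 2 and cKO 4, against 57.1 and 53.3 in Het 1 and Het 3. The groups did not overlap, and cKO 2 was well above the others. The fitted difference was 0.45 ± 0.15 (SE, 95% interval 0.023 to 0.88, limma adjusted p = 0.274), with 0.64 in the pair of cKO 2 and Het 1 and 0.27 in that of cKO 4 and Het 3. Dnmt3b, its low relative, was at 6.39 and 3.51 FPKM in cKO against 3.39 and 3.29 in Het. Its difference of 0.41 ± 0.24 (limma adjusted p = 0.437) came mostly from cKO 2, with 0.75 in that pair and 0.071 in the other. With the medians of the libraries set equal, or with quantile normalization, Dnmt3b was no longer higher in the pair of cKO 4 and Het 3. The level of Dnmt1 over that of Dnmt3a was 1.29 and 1.76 in cKO at 72 h, against 2.51 and 2.34 in Het, and 1.33 against 1.47 at 48 h.

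Ezh2, the inducible catalytic subunit of PRC2, was at 162 and 145 FPKM in cKO 2 and cKO 4, against 132 and 112 in Het 1 and Het 3. The groups did not overlap, and the difference was 0.30 in the first pair and 0.37 in the second. The fitted value was 0.33 ± 0.12 (SE, 95% interval -0.0062 to 0.67, limma adjusted p = 0.292). Markers of other cells were uneven in both pairs. In cKO 4 and Het 3, S100a8 and Lyz2 were listed at 0, and Ltf was at 75.3 against 21.4 FPKM. The CD8 T and NK cell sum there was 120.4 against 14.6 FPKM. Most of it in cKO 4 was Nkg7 (89.1 FPKM) and Gzma (22.8 FPKM), while Cd8b1 was at 4.47 against 4.69 FPKM and Cd8a at 2.24 against 1.01. The part of such cells in the Ezh2 difference was not tested. Ezh1, its counterpart in resting cells, was at 26.95 and 55.3 FPKM in cKO against 41.1 and 51.9 in Het, lower in 1 pair and slightly higher in the other. Its fitted difference was -0.25 ± 0.21 (limma adjusted p = 0.567). The level of Ezh2 over that of Ezh1 was 6.02 and 2.62 in cKO at 72 h, against 3.20 and 2.16 in Het, and 5.26 against 5.65 at 48 h.

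Among the Tet oxidases, Tet2 and Tet3 lay close to level between the genotypes at 72 h. Tet2 was at 30.3 and 38.0 FPKM in cKO 2 and cKO 4, against 32.1 and 36.7 in Het 1 and Het 3. Tet3 was at 49.1 and 59.5 FPKM in cKO against 46.8 and 65.4 in Het. Both went opposite ways in the 2 pairs, with fitted differences of -0.017 ± 0.13 and -0.033 ± 0.13 (SE, limma adjusted p = 0.952 and 0.909). Their 95% intervals, -0.38 to 0.34 and -0.40 to 0.34, leave room for changes of either sign. Tet1, scarce in these cells, was at 2.06 and 1.41 FPKM in cKO against 1.40 and 1.01 in Het, a difference of 0.31 ± 0.23 (limma adjusted p = 0.522).

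**Figure D2:**
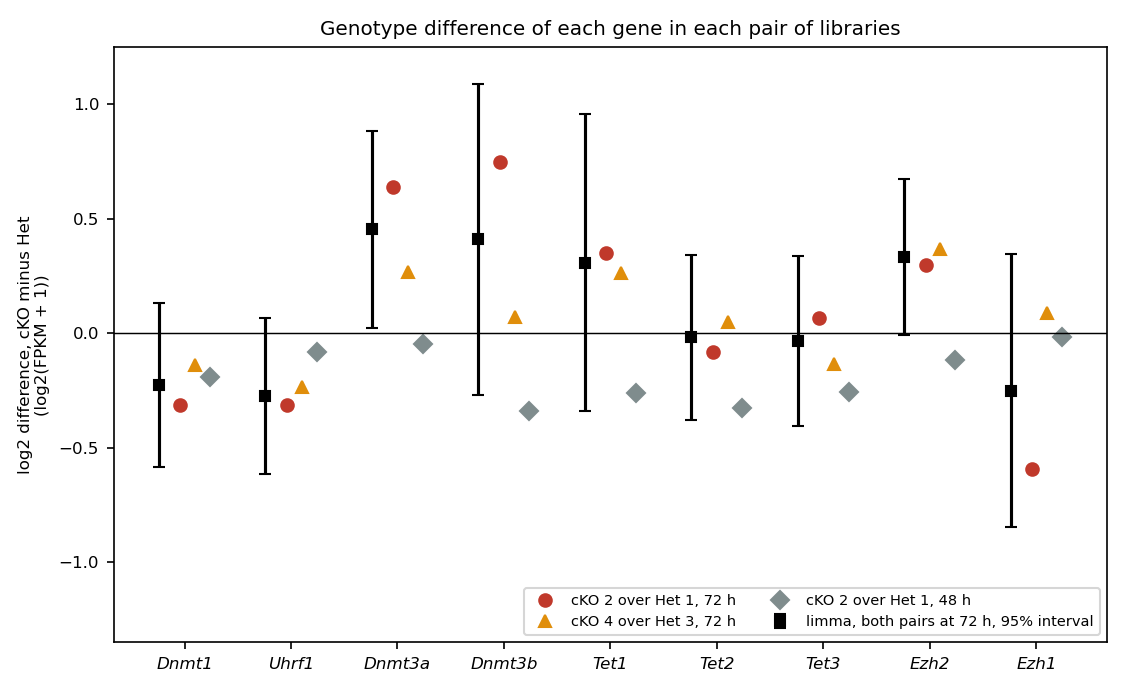
Log2 difference in FPKM + 1, library labelled cKO minus Het, for each gene: circles and triangles are the 2 pairs at 72 h, diamonds the 48 h pair, and squares the limma estimate from both 72 h pairs with its 95% interval. The 48 h diamonds lie below 0 for 9 of 9 genes, while both 72 h pairs lie above 0 for Dnmt3a, Dnmt3b, Tet1 and Ezh2.

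In direction, 4 of 9 genes were higher in cKO in both 72 h pairs (Dnmt3a, Dnmt3b, Tet1, Ezh2), a share of 44.4% against 42.4% of all genes. Another 2, Dnmt1 and Uhrf1, were lower in both, 22.2% against 24.6%, and 3 went opposite ways, 33.3% against 32.8%. These shares lie near those of all genes. With library medians set equal, Tet2, Tet3 and Ezh1 also stood lower in both pairs, and Dnmt3b left the higher group. Across tables, without rescaling between them, both cKO values lay above both Het values for 4 of 9 (44.4% against 24.9% of all genes). Both lay below both Het values for 1 of 9, Dnmt1 (11.1% against 13.8%).

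At 48 h all 9 transcripts were lower in the library labelled cKO than in Het, by amounts that had no replicate check. This was 100% of the 9 against 50.7% of 12394 genes. Cell cycle genes were mostly lower in this pair too. Of 25 mitotic genes 25 were lower, and of 38 DNA replication genes 27 were lower and 11 higher. Of 20 genes of Polycomb repressive complex 1, 8 were lower and 12 higher. Dnmt3b was at 5.21 FPKM in cKO against 6.86 in Het, a log2 difference of -0.34, and Tet2 at 21.3 against 26.97, a difference of -0.33. Tet1 (1.27 against 1.72 FPKM, -0.26) and Tet3 (45.7 against 54.8 FPKM, -0.25) followed. Dnmt1 was at 124 FPKM in cKO against 141 in Het, a difference of -0.19, and Ezh2 at 136 against 148, a difference of -0.12. The remaining genes were nearly level. Uhrf1 was at 182 against 193 FPKM (-0.083), Dnmt3a at 93.3 against 96.5 (-0.048) and Ezh1 at 25.9 against 26.1 (-0.014). Counting error of Ezh1 was 3.09% in cKO and 2.72% in Het, more than its difference, so its sign was not resolved. A difference at least as large in either direction was seen in 14.4% of all genes for Dnmt3b and in 94.6% for Ezh1, and the other members lay between. Dnmt1 and Uhrf1 were thus lower in cKO in 3 of 3 pairs, 22.2% of the 9 genes against 14.8% of all. Higher at 72 h in both pairs and lower at 48 h were 4 of 9, 44.4% against 19% of all genes. As all 9 were lower at 48 h, both counts repeat those at 72 h alone. There the shares of all genes were 42.4% higher and 24.6% lower, so the excess comes from the single 48 h pair.

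When all 6 libraries entered 1 fit of genotype, Dnmt1 and Uhrf1 stood lower and Dnmt3a and Ezh2 higher in cKO. Dnmt1 stood at -0.21 ± 0.097 (SE, limma adjusted p = 0.409) and Uhrf1 at -0.21 ± 0.10 (limma adjusted p = 0.428). Both were lower in cKO in 3 of 3 pairs. Dnmt3a stood at 0.29 ± 0.15 and Ezh2 at 0.18 ± 0.13 (limma adjusted p = 0.461 and 0.551), each higher in 2 of 3 pairs. These 2 values moved with the libraries left out. Dnmt3a stood at 0.11 without cKO 2 or Het 1 at 72 h and at 0.30 without cKO 4 or Het 3. It stood at 0.45 without either 48 h library. Ezh2 stood at 0.12 without cKO 2 or Het 1 at 72 h, at 0.091 without cKO 4 or Het 3, and at 0.33 without either 48 h library. The other 5 genes lay between -0.17 and 0.16. None of the 9 passed, against 0% of 12394 genes, and 0 of 9 lay under an unadjusted p of 0.05, against 13.3% of all genes.

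Time courses of cKO 2 and Het 1 can be set side by side, each with 1 library a time and no test within a genotype. In these libraries Cd8a was at 39.0 FPKM at 72 h against 0.992 at 48 h in cKO 2. In Het 1 it was at 20.3 against 0.466 FPKM, and the part of such cells was not tested. Dnmt3a was at 89.5 FPKM at 72 h against 93.3 at 48 h in cKO 2, but at 57.1 against 96.5 in Het 1. Dnmt3b was at 6.39 FPKM at 72 h against 5.21 at 48 h in cKO 2, and at 3.39 against 6.86 in Het 1. The log2 time differences of Dnmt3a were -0.059 in cKO 2 and -0.75 in Het 1. For Dnmt3b they were 0.25 in cKO 2 and -0.84 in Het 1. Ezh1 was at 26.95 FPKM at 72 h against 25.9 at 48 h in cKO 2 (0.056), and at 41.1 FPKM at 72 h against 26.1 at 48 h in Het 1 (0.63).

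Ezh2 and Tet1 were likewise higher at 72 h than at 48 h in cKO 2 (0.25 and 0.43) and lower in Het 1 (-0.17 and -0.18). Tet2 and Ezh1 were higher at 72 h in both (22.2% against 28.7% of all genes), Tet2 at 30.3 against 21.3 FPKM in cKO 2 and at 32.1 against 26.97 in Het 1. Dnmt3a and Uhrf1 were lower at 72 h in both (22.2% against 26.6%). Uhrf1 was lower at 72 h in cKO 2 (-0.24) and level in Het 1 (-0.014), and Dnmt1 stood at -0.10 and 0.018. The sign differed between the genotypes, with cKO 2 higher and Het 1 lower at 72 h, for 4 of 9 genes (44.4% against 26.3% of all genes). These time differences rearrange the same libraries of cKO 2 and Het 1 whose genotype differences are given above. They are therefore not a separate observation.

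**Figure D3:**
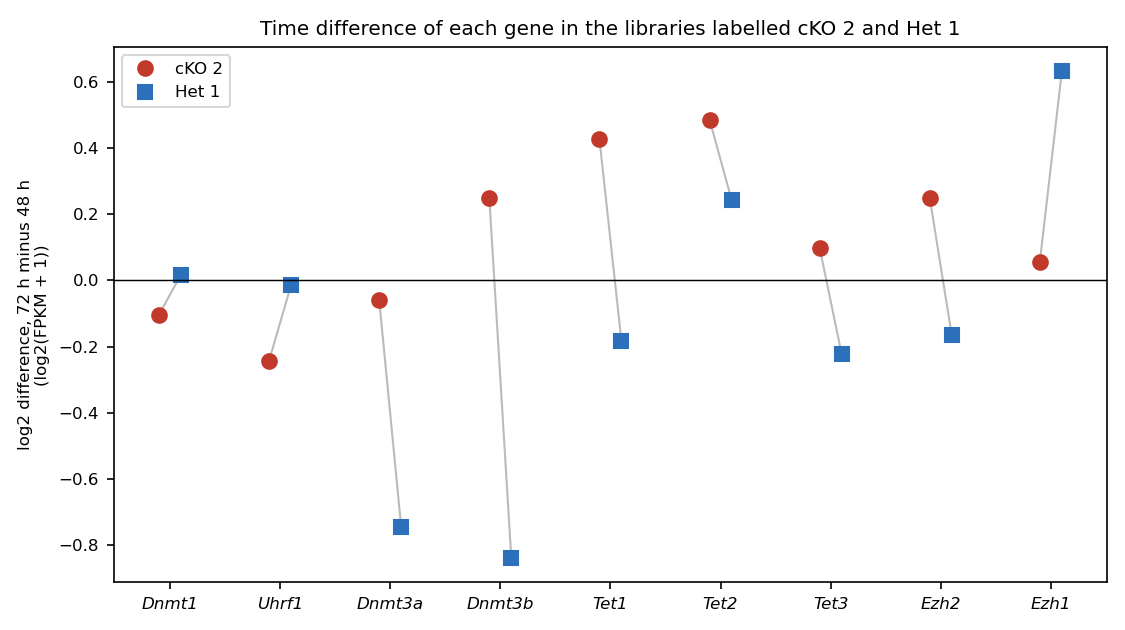
Log2 difference in FPKM + 1, 72 h minus 48 h, for each gene in the libraries labelled cKO 2 (circles) and Het 1 (squares); grey lines join the 2 values of a gene. Dnmt3a and Dnmt3b lie at -0.75 and -0.84 in Het 1 and at -0.059 and 0.25 in cKO 2, and Tet2 lies above 0 in both.

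In the additive model of genotype, time and table over all 6 libraries, no member passed for time. Tet2 stood at 0.37 ± 0.15 (SE, limma adjusted p = 0.453), Dnmt3a at -0.40 ± 0.19 (adjusted p = 0.492) and Ezh1 at 0.34 ± 0.20 (adjusted p = 0.551). Without Het 1 at 72 h, Dnmt3a stood at -0.14 and Ezh1 at 0.030, and without cKO 2 at 72 h at -0.67 and 0.66. Without the 48 h libraries cKO 2 and Het 1 in turn, Dnmt3a stood at -0.65 and -0.15, Ezh1 at 0.46 and 0.23 and Tet2 at 0.21 and 0.52. Of all genes, 0.0242% passed, the 3 genes Tgm2, Cd8a and Gzmb, which were named after their values were seen. At an unadjusted p under 0.05 there were 0 of 9, against 11.1% of all genes. The interaction of genotype and time was 0.50 ± 0.26 for Dnmt3a, 0.75 ± 0.41 for Dnmt3b, 0.57 ± 0.39 for Tet1 and 0.45 ± 0.21 for Ezh2 (each limma adjusted p = 0.856). None passed, against 0% of all genes, and at an unadjusted p under 0.05 there were 0 of 9, against 5.71% of all genes. The difference between the genotypes in their change over time was therefore not shown by the test.

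The other genes of these pathways were read from the same fits, and no partner gene passed adjusted p under 0.05 for genotype. As background for the counts below, 56% of all genes were higher in cKO 2 than in Het 1 at 72 h. For cKO 4 over Het 3 the share was 62.1%. Among partners of Ezh2 in PRC2, 6 of 10 measured genes (of 11 listed) were higher in cKO at 72 h, with a median of 0.091 against 0.081 for all genes. With library medians set equal this became 5 of 10 and a median of -0.0021. Epop, a PRC2 accessory factor, was at 34.6 and 28.1 FPKM in cKO against 14.1 and 20.7 in Het (0.83 ± 0.24, SE, limma adjusted p = 0.239). The cofactor Aebp2 was at 200.4 and 246 FPKM against 158 and 181 (0.39 ± 0.12, adjusted p = 0.255). The core subunit Eed stood at 0.39 ± 0.14 and the accessory Mtf2 at 0.32 ± 0.12. Suz12, the core scaffold, differed by 0.061 in the pair of cKO 2 and Het 1 and by -0.054 in that of cKO 4 and Het 3.

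In Polycomb repressive complex 1, which binds and compacts marked chromatin, 9 of 20 genes were higher and 11 lower in cKO at 72 h, with a median of -0.031. Cbx7, a reader of the PRC2 mark, was at 49.3 and 57.5 FPKM in cKO against 87.5 and 110.6 in Het (-0.87 ± 0.12, SE, limma adjusted p = 0.123). At 48 h it went the other way, at 79.9 FPKM in cKO against 42.5 in Het. Its interaction of genotype and time was -1.77 ± 0.21 (limma adjusted p = 0.742). Bmi1, a core subunit, was at 45.5 and 37.4 FPKM in cKO against 26.1 and 27.4 in Het (0.60 ± 0.15, adjusted p = 0.212), and Scmh1 stood at 0.51 ± 0.14. The demethylases of the mark, Kdm6a and Kdm6b, stood at -0.11 ± 0.13 and 0.039 ± 0.23.

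Of 14 measured partners of the DNA methyltransferases, 9 were higher in cKO at 72 h, with a median of 0.069 (7 of 14 and -0.023 with library medians set equal). The methyl-CpG reader Zbtb38 stood at 0.52 ± 0.13 (SE, limma adjusted p = 0.206), and the chromatin remodeller Hells at 0.37 ± 0.19. Uhrf2, the paralog of Uhrf1, stood at -0.33 ± 0.18. Among 15 demethylation partners, 10 were higher, with a median of 0.086 (7 of 15 and -0.0066 with library medians set equal), and the Gadd45 stress genes led in both directions. Gadd45g was at 45.7 and 36.1 FPKM in cKO against 98.4 and 113 in Het (-1.36 ± 0.18, adjusted p = 0.121). At 48 h Gadd45g went the other way, at 26.1 FPKM in cKO against 13.3 in Het. Gadd45a was at 6.95 and 8.77 FPKM against 3.12 and 4.03 (0.95 ± 0.16, adjusted p = 0.145), and Gadd45b stood at 1.11 ± 0.26. The base excision nuclease Apex1 stood at 0.92 ± 0.18.

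Genes that supply methyl groups through the folate and methionine cycles had a median of 0.25 at 72 h, with 9 of 12 higher in cKO (8 of 12 and 0.16 with library medians set equal), against a median of 0.081 for all genes. The serine hydroxymethyltransferase Shmt1 was at 77.3 and 35.7 FPKM in cKO against 27.9 and 27.8 in Het (0.89 ± 0.30, SE, limma adjusted p = 0.274). Mthfd1, which interconverts folates, stood at 0.78 ± 0.26 and Shmt2 at 0.58 ± 0.22. The list rested largely on 1 pair, with a median of 0.53 and 9 of 12 higher for cKO 2 and Het 1, where 56% of all genes were higher, and 0.18 and 8 of 12 for cKO 4 and Het 3, where 62.1% were.

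**Figure D4:**
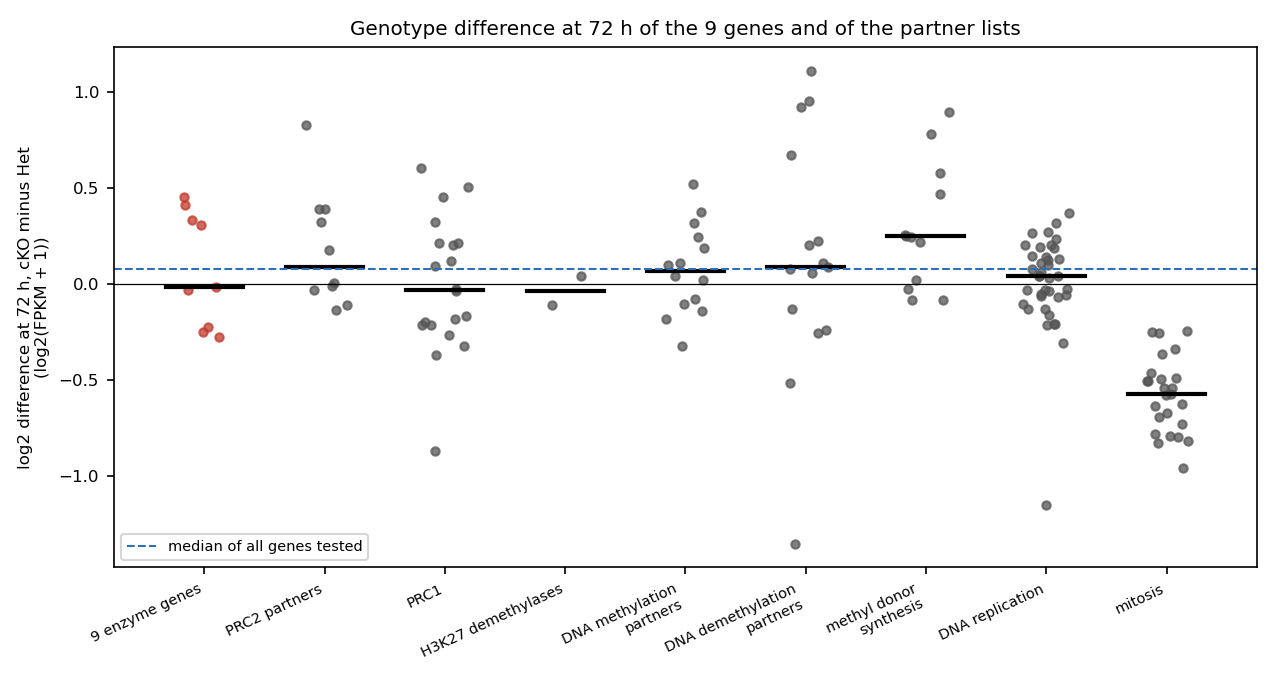
Limma log2 difference at 72 h, cKO minus Het, for the 9 genes (red) and each measured gene of the partner lists (grey); black bars are list medians and the dashed line is the median of all genes tested (0.081). The 25 mitotic genes lie below 0, while the DNA replication genes lie around 0 with E2f2 at -1.16.

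Cell cycle genes were set beside the members because Dnmt1, Uhrf1 and Ezh2 are made mainly in cycling cells. The 38 DNA replication genes had a median of 0.040 at 72 h, with 21 higher and 17 lower in cKO, but 15 higher and 23 lower, with a median of -0.053, when library medians were set equal. The 25 mitotic genes were lower in 25 of 25, with a median of -0.57. None passed in either list, and 21 of the 25 mitotic genes were lower with an unadjusted p under 0.05, against 6.99% of all genes. E2f2, a transcription factor of the replication programme, was at 50.7 and 91.3 FPKM in cKO against 142 and 164 in Het (-1.16 ± 0.20, SE, limma adjusted p = 0.151). Over time 36 of 38 replication genes were lower at 72 h than at 48 h, with a median of -0.26 against 0.0018 for all genes. Relative to the median level of the replication genes in the same library, Ezh2 was higher in cKO at 72 h by 0.41 and 0.38 in the 2 pairs. At 48 h it stood at -0.12. On the same scale Dnmt1 stood at -0.20 and -0.12 and Uhrf1 at -0.20 and -0.22 at 72 h. The median level itself differed by -0.11 and -0.015 in these pairs, cKO minus Het. The median of the replication genes' own differences was 0.015 and 0.060, of the other sign. The size of the relative values thus depends on which summary is used.

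Among 9283 other genes averaging 5 FPKM or more, those most like each member were found by Pearson r of log2(FPKM + 1), centred within table, over 6 libraries. This is a description of few libraries that share normalisation, with no test. Dnmt3a was most like Gtf3c5, Traf3 and Sumo2 (r = 0.9996, 0.9995 and 0.9993), and 599 genes exceeded r = 0.95 with it. Ezh2 was most like Etfdh, Rabepk and Aptx (r = 0.997, 0.996 and 0.995), with 150 such genes. Dnmt1 was most like Eme1 and Ercc6l (r = 0.999 and 0.997; 87 genes), and Uhrf1 most like Dcaf12 and Zbtb14 (r = 0.997 and 0.996; 50 genes). Ezh1 was most like D17H6S53E, Ppox and Sh2b1 (highest r = 0.999; 218 genes), Tet2 most like Dmtf1, Gemin8 and Traj28 (highest r = 0.997; 95 genes) and Tet3 most like Ddx46, Nup205 and Blm (highest r = 0.984; 24 genes).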

How the data were processed

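Both tables of the authors' deposited FPKM values were used as they stand. Per the submitters' processing notes, Bowtie2 2.2.3, TopHat2 2.0.12, HTSeq 0.6.1 and the build mm9 were used. Their roles, the gene annotation and whether counting used strand are not stated there. Reads of antisense genes therefore cannot be told apart. The overlapping genes of the members had at most 2.56 FPKM. Of 47347 shared rows, 47069 carried an Ensembl ID, and symbols matched 46488.

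Depth was estimated from low values, of which 86.0% to 86.8% lay within 0.02 of a whole fragment number with mean transcript lengths, against 3.73% to 4.31% with scrambled lengths. Counting errors cover counting only.

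Genes averaging under 1 FPKM in the fitted libraries were left out. Values were fitted as log2(FPKM + 1), which understates changes of low genes, with limma 3.58.1 in R 4.3.3 (variance trend, Benjamini-Hochberg over all genes). Fits were tested on simulated data. Members, lists, promoter words and tests were chosen with earlier results of these data known. Partner genes named are those with the smallest p of each list, at most 4, with Suz12 added after its values were seen. Tables used Python 3.11.15 with pandas 2.3.3. Of the 3 genes most like Dnmt1 and Uhrf1, 1 each is not reported here.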

Additional observations from a re-analysis of the deposited data

Results flagged for a closer look

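Of the 9 genes, 4 were higher in the library labelled cKO than in Het in both 72 h pairs and lower in the 48 h pair. Of all genes tested at 72 h, 19% did so as well. All 9 were lower at 48 h, so these 4 are those higher in both 72 h pairs, as were 42.4% of all genes. The difference at 72 h minus that at 48 h, from the interaction term over 6 libraries, was 0.75 for Dnmt3b, 0.57 for Tet1, 0.50 for Dnmt3a and 0.45 for Ezh2 on the log2 scale. Without cKO 2 or Het 1 at 72 h it was 0.41 for Dnmt3b and 0.32 for Dnmt3a, and without cKO 4 or Het 3 it was 1.09 and 0.69. With a pseudocount of 0.1 or 5 it was 0.90 or 0.22 for Tet1 and 0.88 or 0.45 for Dnmt3b, the 2 genes of low level. None passed the test of that difference (limma adjusted p = 0.856 for each), and at 48 h the direction rests on 1 pair of libraries. The summed CD8 T and NK cell markers were 314 and 120.4 FPKM in cKO 2 and cKO 4 at 72 h. In Het 1 and Het 3 they were 83.9 and 14.6 FPKM, and at 48 h 43.2 in cKO against 30.9 in Het. Most of the cKO 4 sum was Nkg7 (89.1 FPKM) and Gzma (22.8 FPKM). The myeloid sum was higher in cKO in 3 of 3 pairs, but in cKO 4 and Het 3 it was nearly all Ltf (75.3 against 21.4 FPKM). The B cell sum of cKO 4 and Het 3 was 9.23 against 10.1 FPKM. The part of these cells in the reversal was not tested.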

How the results depend on the processing

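None of the 9 genes passed for genotype at 72 h, genotype over both times, time or their interaction under any alternative that allowed a test. Adjusted p ran from 0.266 to 0.988, 0.272 to 0.999, 0.138 to 1 and 0.807 to 1 over these alternatives. Over all genes, 8 passed at 72 h with no filter on low values against 0. For time, 1 gene passed with a pseudocount of 5, and 0 with no filter, with no table term and with the replicate block, against 3. Leaving out each library gave 0 to 7 genes over both times and 0 to 4 for time; the 7 came without cKO 4 or Het 3, and for time 1 was left without Het 1 at 72 h and 0 without either 48 h library.

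Signs turned for time without the table term for Tet1 (-0.026), Tet3 (0.13) and Ezh2 (-0.056), and for the interaction of Dnmt1 with quantile normalization (0.017); the cause was not tested. Leaving out single libraries gave, over both times, -0.13 to 0.41 for Dnmt3b and -0.30 to 0.038 for Ezh1. For time it gave -0.12 to 0.031 for Dnmt1, -0.74 to 0.15 for Dnmt3b, -0.16 to 0.41 for Tet1, -0.19 to 0.069 for Tet3 and -0.18 to 0.27 for Ezh2. At 72 h, leaving out 1 library leaves the other pair alone, a value with no test. For the interaction this likewise leaves no test, with -0.12 to 0.053 for Dnmt1 and -0.58 to 0.10 for Ezh1, and leaving out a 48 h library leaves no value.

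At 48 h, 9 of 9 genes stayed lower in the library labelled cKO under 5 scalings and pseudocounts chosen after seeing the data. A pseudocount cannot turn the sign of a difference between 2 libraries, so those settings were no check of it. The scalings moved the smallest difference, Ezh1 at -0.014, away from 0. It stood at -0.045 with equal library sums, -0.021 with quantile normalization and -0.020 with equal medians. With the replicate number as a block, 0 of 9 genes passed for time. The labels do not say what a number marks, and numbers 1 and 2 coincide with the genotypes in the first table, so pairing and genotype cannot be told apart (r = 0.301 across genes between the differences at 48 h and 72 h).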
